A study of Mus musculus with 6 samples.

Results

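Wdfy1, Entpd4 and Ide are 3 genes whose RNA levels stood apart between NS-DADm and wild type (WT) mouse heart muscle, and Fgfbp3 and Btaf1 are genes that lie near Ide. Of 17891 genes listed in at least 1 sample, Wdfy1, Entpd4 and Ide were chosen by name from the NS-DADm against WT comparison. Fgfbp3 and Btaf1 were chosen as genes near Ide, with that comparison known. The differences of all 5 genes are therefore given as a description with no test. A working name for the set was possible strain-linked genes, but the tables hold expression values and no genotypes, and a link to strain was not measured. RNA sequencing covered the myocardium of 6-week-old mice labelled C57BL/6, with 3 samples per group. The NS-DADm animals are whole-body knock-ins with mutations in the deacetylase activating domains (DADs) of nuclear receptor corepressors, among them NCOR, encoded by Ncor1. These domains switch on the histone deacetylase HDAC3. The mutation is not limited to heart muscle cells, the labels give no substrain of C57BL/6 for either group, and they do not say whether each sample came from a separate mouse.

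The members have unrelated roles. WDFY1 is a protein of early endosomes that binds the lipid phosphatidylinositol 3-phosphate through its FYVE domain and serves as an adaptor of the Toll-like receptors TLR3 and TLR4. ENTPD4 is a membrane-bound nucleotidase of the Golgi apparatus and lysosomal vacuoles that hydrolyses UDP and related nucleotides. IDE, the insulin-degrading enzyme, is a zinc metallopeptidase that cleaves insulin, amyloid-beta and atrial natriuretic peptide. FGFBP3 is a secreted protein that binds fibroblast growth factors, and BTAF1 is an ATPase that removes the TATA-binding protein TBP from DNA. As background, C57BL/6 mice are kept as substrains that differ at a limited number of loci, and a segment that carries Ide and Fgfbp3 is known to vary in copy number even among C57BL/6J mice. Copy number was not measured here.

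What a read can say about Entpd4 depends on a near neighbour in the reference genome. In the GENCODE M21 annotation of the assembly GRCm38, Entpd4 and the separate gene Entpd4b have transcripts that are each 3589 bases long and identical at 3589 of 3589 positions, and their coding sequences are identical over all 1839 bases. The first 90 coding bases of each, on the plus strand, are shown because the whole transcripts match in the same way, with the start codon in capitals.
Entpd4-206: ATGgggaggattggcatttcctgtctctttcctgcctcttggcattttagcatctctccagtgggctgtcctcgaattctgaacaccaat
Entpd4b-204: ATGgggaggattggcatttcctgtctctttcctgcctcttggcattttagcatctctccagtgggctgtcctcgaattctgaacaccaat
In the RefSeq gene order of GRCm38.p6, only 4 genes lie between the pair. Entpd4b was listed in 0 of the 6 gene tables, and RNA from the copies cannot be told apart, so the Entpd4 values below may stand for both genes.

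For Wdfy1, 2 transcript models were listed, and they share their first 489 coding bases. They are shown from coding base 460 to 549, on the minus strand of the genome and written 5′ to 3′ along the RNA, with the part after the shared stretch in capitals. NM_001111279 corresponds to Wdfy1-204 and the shorter NM_027057 to Wdfy1-201.
Wdfy1-204: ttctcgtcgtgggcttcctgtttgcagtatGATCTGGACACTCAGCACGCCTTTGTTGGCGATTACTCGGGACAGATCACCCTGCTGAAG
Wdfy1-201: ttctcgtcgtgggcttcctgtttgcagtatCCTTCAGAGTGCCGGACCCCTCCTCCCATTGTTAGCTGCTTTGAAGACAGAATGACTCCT
Apart from Entpd4, the members' transcripts were nearly free of stretches held by other genes. Every window of 100 bases of the Entpd4 transcript also occurred in Entpd4b (100%), against 0% for the transcripts of Wdfy1, Ide, Fgfbp3 and Btaf1. With windows of 50 bases the shared part was 0.333% for Wdfy1-204 and 0% for Wdfy1-201, Ide, Fgfbp3 and Btaf1. These windows are from M21 sequences. The lengths in the authors' gene tables differ, at 3084 against 3589 bases for Entpd4 and 8509 against 7204 for Btaf1. The windows may therefore not cover all of the models that were counted.

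Total expected counts, the authors' estimated number of reads per gene summed over a sample, were 10183792 to 11205221 in WT and 12262523 to 12758311 in NS-DADm. FPKM, read fragments scaled to transcript length and library size, is used below for levels, and fold changes are from edgeR on the counts. Cardiomyocyte markers such as Myh6 and Tnnt2 summed to 35779 to 38350 FPKM in WT and 35830 to 39460 in NS-DADm, which matches the labelled tissue. Ncor1 had a WT level of 22.9 ± 1.2 FPKM (SD, n = 3) and an NS-DADm level of 24.3 ± 1.0, and Hdac3 had 29.8 ± 2.0 and 29.8 ± 0.80. Neither passed edgeR's test (adjusted p = 0.432 and 0.884), and the knock-in need not change RNA levels, so they do not check the labels. None of the 5 genes lies on the chromosome of Ncor1.

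Wdfy1 (gene ID 69368) was the member that was higher in NS-DADm. Its level was 2.42, 2.92 and 2.68 FPKM in WT 1, 2 and 3, against 10.45, 8.04 and 10.53 for NS-DADm 1, 2 and 3. All 3 NS-DADm samples lay far above all WT samples, with NS-DADm 2 the lowest of them. The expected counts behind these values were 108 to 129 in WT and 462 to 574 in NS-DADm. On the count scale Wdfy1 was 3.96-fold higher in NS-DADm (log2 fold change 1.98, SE 0.12).

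The longer Wdfy1 transcript carried nearly all of these reads. NM_001111279 held 97.7% to 99.1% of the gene's counts in WT and 99.7% to 100% in NS-DADm, and its log2 fold change was 2.01 (SE 0.12). The shorter NM_027057 had 1.56, 2.67 and 1.10 counts in WT in replicates 1, 2 and 3; it had 1.63 and 1.39 in NS-DADm 1 and 3 and was not listed in NS-DADm 2. These counts are below 3 in every sample, and no change in the shorter transcript was detectable at this depth. Because FPKM divides by a length that weights the transcripts, and that length was 4029 to 4349 bases in WT and 4492 to 4566 in NS-DADm, the NS-DADm mean was 362% of the WT mean on the FPKM scale.

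Entpd4 (gene ID 67464) had the highest level of the 5 genes and was lower in NS-DADm. It stood at 91.7, 87.0 and 91.5 FPKM in the WT samples and at 44.8, 63.4 and 44.2 in the NS-DADm samples. The WT samples lay close together, with a coefficient of variation of 2.96%, against 21.5% in NS-DADm. NS-DADm 2 stood between the other NS-DADm samples and WT, at 70.3% of the WT mean, where NS-DADm 1 and 3 were at 49.7% and 49.1%. Over the samples Entpd4 was 1.74-fold lower in NS-DADm (log2 fold change -0.80, SE 0.13), from 8750 expected counts in WT and 5752 in NS-DADm.

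Ide (gene ID 15925) was also lower in NS-DADm. Its level was 35.8, 43.7 and 48.7 FPKM in WT and 25.8, 24.0 and 20.1 in NS-DADm. The groups did not overlap, and the 3 NS-DADm samples were at 60.4%, 56.1% and 47.1% of the WT mean. Ide was 1.80-fold lower (log2 fold change -0.85, SE 0.12). For Ide, unlike Entpd4, NS-DADm 2 lay between the other NS-DADm samples.

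**Figure D1:**
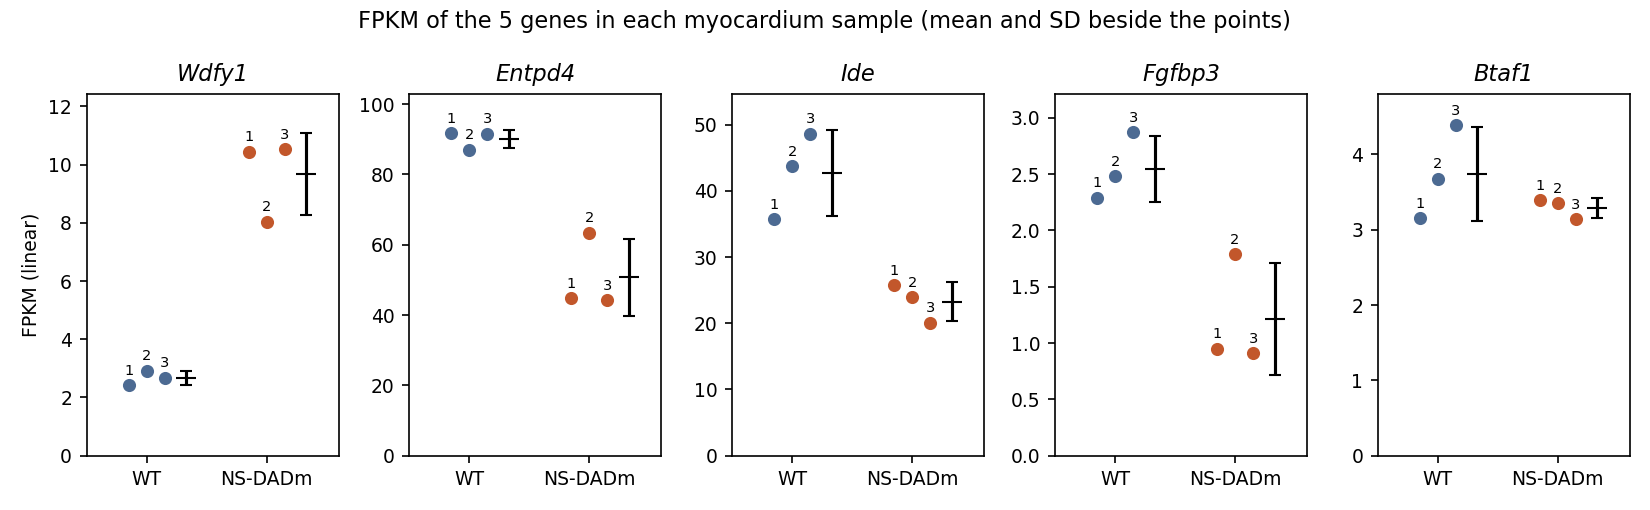
FPKM (linear axes from 0) of the 5 genes in each sample, numbered by replicate, with the group mean and SD beside the points. Wdfy1 is higher in all NS-DADm samples, Entpd4, Ide and Fgfbp3 are lower in all of them, and Btaf1 overlaps between the groups.

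Fgfbp3 and Btaf1 lie next to each other in the RefSeq gene order, with Cpeb3 and Marchf5 as the tested genes between Btaf1 and Ide. Fgfbp3 (gene ID 72514) had 2.29, 2.48 and 2.87 FPKM in WT and 0.95, 1.79 and 0.91 in NS-DADm. All NS-DADm samples were below all WT samples, but the counts were low, at 42, 43 and 55 in WT and 20, 39 and 19 in NS-DADm. The 95% exact Poisson interval, which covers counting error only, ran from 27.7 to 53.3 for NS-DADm 2 and from 12.2 to 30.9 for NS-DADm 1. The intervals of these samples overlap. Without scaling for library size, that of NS-DADm 2 also overlapped WT 1 (30.3 to 56.8), WT 2 (31.1 to 57.9) and WT 3 (41.4 to 71.6). That of NS-DADm 1 just reached WT 1, and that of NS-DADm 3 (11.4 to 29.7) lay below all WT intervals. Fgfbp3 was 2.05-fold lower in NS-DADm (log2 fold change -1.03, SE 0.29), and -1.44 without NS-DADm 2.

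Btaf1 (gene ID 107182) showed a smaller difference, and its groups overlapped. Its level was 3.15, 3.68 and 4.39 FPKM in WT and 3.39, 3.35 and 3.14 in NS-DADm. The NS-DADm samples lay within the lower part of the WT range, except for NS-DADm 3, which was just below it (log2 fold change -0.16, SE 0.11). The ratio of Btaf1 to Ide FPKM was accordingly 0.0842 to 0.0902 in WT and 0.131 to 0.156 in NS-DADm. The ratio of Fgfbp3 to Ide was 0.0568 to 0.0640 in WT, and in NS-DADm it was 0.0368, 0.0746 and 0.0453, on both sides of the WT range.

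Of the 5 genes, 3 passed an adjusted p of 0.05 in edgeR's quasi-likelihood test, Wdfy1 upward and Entpd4 and Ide downward, where 3.2% of 13130 tested genes did (1.79% upward and 1.41% downward, and 18.1% at an unadjusted p under 0.05). Groups did not overlap in 4 of the 5, against 23.4% of tested genes (14.5% with NS-DADm lower). Since the members were picked with this comparison known, nothing is read from these counts. In order of level, WT samples had Entpd4 at 90.1 ± 2.7 FPKM, Ide at 42.7 ± 6.5, Btaf1 at 3.74 ± 0.62, Wdfy1 at 2.67 ± 0.25 and Fgfbp3 at 2.55 ± 0.30, where the ranges of Wdfy1 and Fgfbp3 overlapped. In NS-DADm Wdfy1 took the third place, with Entpd4 at 50.8 ± 10.9, Ide at 23.3 ± 2.9, Wdfy1 at 9.67 ± 1.4, Btaf1 at 3.29 ± 0.13 and Fgfbp3 at 1.22 ± 0.50.

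**Figure D2:**
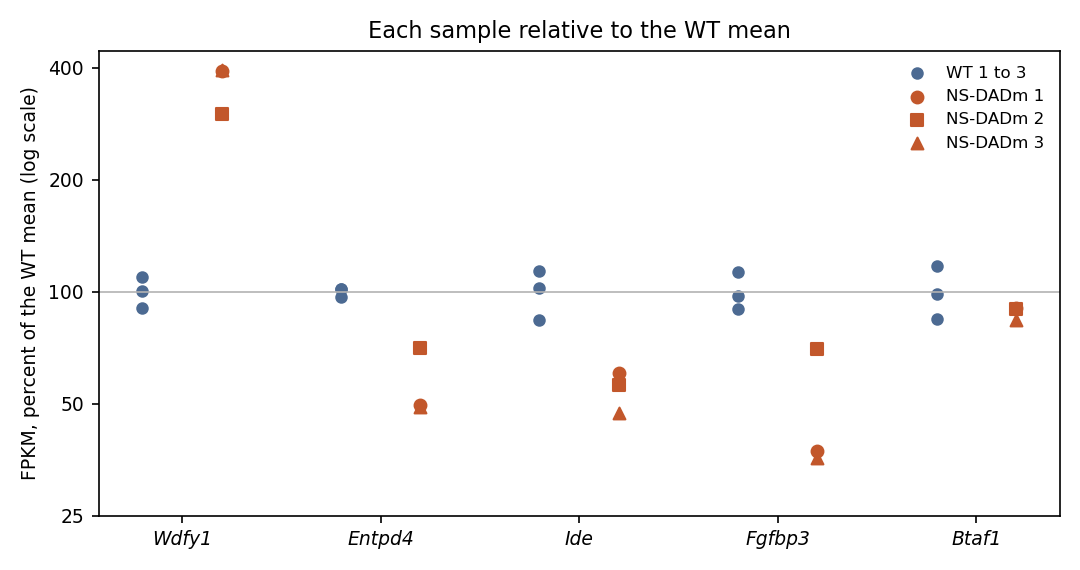
FPKM of each sample as a percentage of the gene's WT mean (log axis), with WT samples in blue and NS-DADm samples by marker shape. NS-DADm 2 (square) is nearest to WT for Wdfy1 (301%), Entpd4 (70.3%) and Fgfbp3 (70.3%), while for Ide it is at 56.1%, between the others.

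Marker genes of other tissue parts also varied between libraries. The 5 atrial markers (Nppa, Sln, Myl7, Myl4 and Bmp10) summed to 532, 269 and 4653 FPKM in WT 1, 2 and 3, against 3740, 571 and 6542 for NS-DADm 1, 2 and 3. Of these markers 0 of 5 were called, and Bmp10 was not listed in WT 1, WT 2 or NS-DADm 2. The 3 adipocyte markers followed the same libraries, at 5.32, 2.36 and 60.5 FPKM in WT against 38.2, 5.95 and 186 in NS-DADm. The 6 macrophage markers summed to 138 to 147 FPKM in WT against 182 to 207 in NS-DADm, and Csf1r, C1qa and C1qb rose. The 3 erythroid markers (Hba-a1, Hbb-bs and Alas2) summed to 4754 to 5638 FPKM in WT against 2403 to 4683 in NS-DADm. These sums did not overlap, but the groups did for Hba-a1 and Alas2, and 0 of 3 were called. The 4 smooth muscle and pericyte markers summed to 267 to 296 FPKM in WT against 212 to 248 in NS-DADm. Myh11 alone went the other way (log2 fold change 0.49), and 0 of 4 were called. Schwann cell markers were low, with sums of 4.13 to 4.31 FPKM in WT against 2.41 to 3.46, and 0 of 2 tested were called. Of all these libraries NS-DADm 2 was lowest in erythroid markers. NS-DADm 2 was also low in atrial markers and nearest to WT for Wdfy1, Entpd4 and Fgfbp3. Among WT samples, WT 3, with high atrial markers, lay between WT 1 and WT 2 for Wdfy1 and Entpd4 and was the highest for Ide, Fgfbp3 and Btaf1. Within the 3 libraries of high atrial markers (1 WT, 2 NS-DADm) the NS-DADm level was 391% of WT for Wdfy1, 48.6% for Entpd4, 47.1% for Ide, 32.4% for Fgfbp3 and 74.4% for Btaf1. Within the 3 libraries of low atrial markers (2 WT, 1 NS-DADm) the values were 301%, 70.9%, 60.4%, 75.1% and 98.1%. The direction was the same in both sets for each gene. For Wdfy1, Entpd4, Ide and Fgfbp3 the groups do not overlap, so no split of the samples could reverse it. Their shared direction is therefore no support, and Btaf1 hardly differed in the low set (98.1%). No test was run on these sets, and the part of tissue composition in the size of the differences was not tested. In bulk tissue, fewer cells of a type and less RNA per cell cannot be told apart.

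The genes around the members were examined to see whether whole neighbourhoods differed. For each of 3 loci (Wdfy1, Entpd4, and the stretch from Fgfbp3 to Ide) the nearest 5 tested genes on each side were taken from the RefSeq gene order, together with the tested genes inside the stretch. Of these 32 neighbours, 1 passed the test and 31 did not, against 3.2% of all tested genes. Their median log2 fold change was 0.03, against 0.00 over all tested genes, with values from -0.35 to 0.59.

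Next to Wdfy1, Ap1s3, which encodes a subunit of the clathrin adaptor AP-1, had 1.04 ± 0.32 FPKM in WT samples against 0.953 ± 0.27, and Mrpl44, a mitochondrial ribosomal protein gene on the other side, 38.2 ± 2.8 and 40.9 ± 2.7 (adjusted p = 0.892 and 0.479, edgeR). The neighbour called was Irs1, the insulin receptor substrate, the fifth tested gene after Wdfy1. Irs1 stood at 4.02, 4.52 and 4.62 FPKM in WT and at 6.39, 6.91 and 6.18 in NS-DADm. It rose 1.51-fold (log2 fold change 0.59, SE 0.09, adjusted p = 0.00698), and the groups did not overlap. The 4 tested genes between Wdfy1 and Irs1 (Mrpl44, Serpine2, Cul3 and Dock10) did not pass.

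Next to Entpd4, 0 of 10 neighbours were called. The groups did not overlap for Slc25a37, Dock5 and Kctd9, nor for 23.4% of all tested genes. Slc25a37, a mitochondrial iron importer on one side, had 7.59 ± 0.10 FPKM in WT samples against 6.98 ± 0.31 (log2 fold change -0.10, SE 0.07, adjusted p = 0.53, edgeR). Loxl2, a lysyl oxidase of the extracellular matrix on the far side of Entpd4b, had 5.76 ± 1.4 and 6.48 ± 0.39 (0.19, SE 0.15, adjusted p = 0.549). Both differences were smaller than that of Entpd4, but Entpd4 was picked from this comparison, so nothing is read from this.

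Around Fgfbp3, Btaf1 and Ide, 0 of 12 tested neighbours were called, and another 4 RefSeq genes between Btaf1 and Ide were not tested. Cpeb3, an RNA-binding regulator of translation, had 28.5 ± 3.9 FPKM in WT samples against 27.0 ± 2.1 (adjusted p = 0.835, edgeR). Marchf5 (listed as March5), a ubiquitin ligase of the mitochondrial outer membrane, had 31.8 ± 1.8 against 36.9 ± 1.4 FPKM. Its log2 difference of 0.16 (SE 0.07) did not pass (adjusted p = 0.249, edgeR). Its groups did not overlap, nor did those of 23.4% of all tested genes. Tnks2, a tankyrase on the far side of Fgfbp3, had 18.6 ± 0.61 and 18.9 ± 0.10 FPKM, and Kif11, a mitotic kinesin beyond Ide, 0.527 ± 0.16 and 0.500 ± 0.069 (adjusted p = 0.752 and 0.933). Along this stretch the log2 fold changes were -1.03 for Fgfbp3, -0.16 for Btaf1, -0.05 for Cpeb3, 0.16 for Marchf5 and -0.85 for Ide. Ide was picked from this comparison, so nothing is read from its place.

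**Figure D3:**
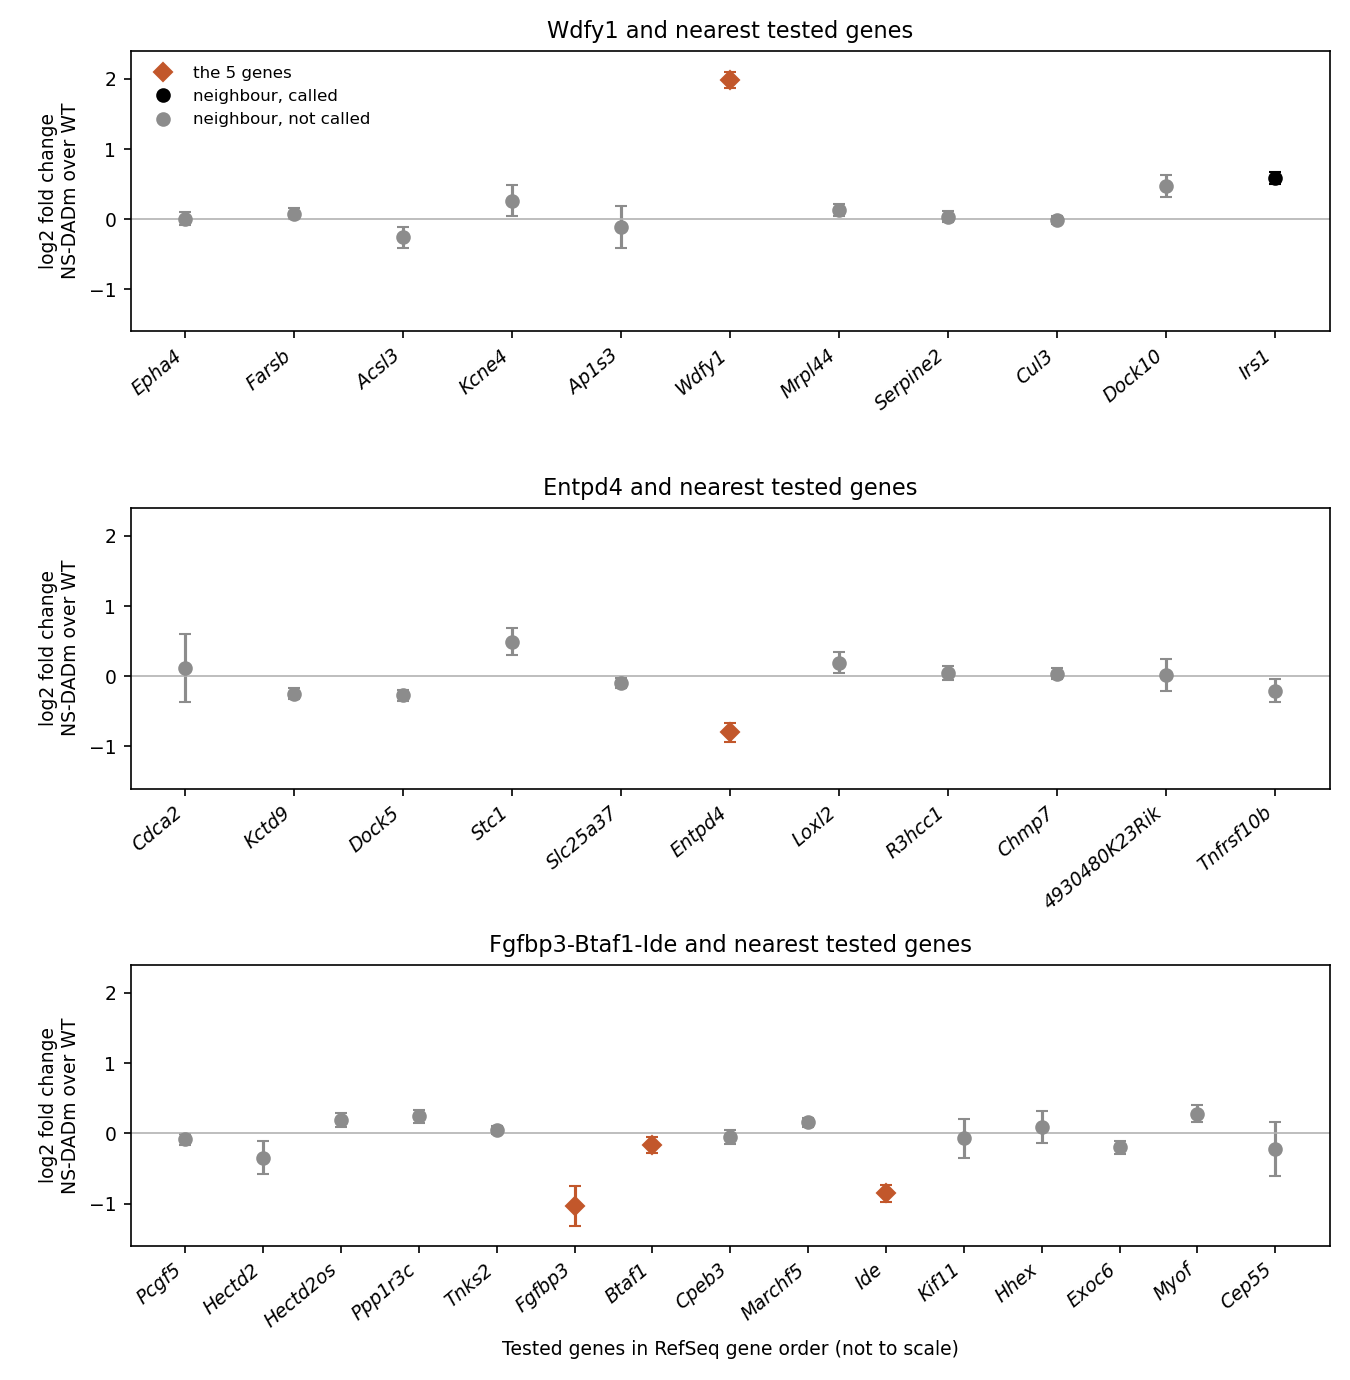
Log2 fold change, NS-DADm over WT, with its standard error, for the 5 genes (diamonds) and their nearest tested genes (circles; black where called) in RefSeq gene order, not to scale. Of 32 neighbours only Irs1 (0.59) was called. Cpeb3 (-0.05) and Marchf5 (0.16) lie between Btaf1 and Ide.

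Genes of the members' families and pathways were counted from 8 lists, with the members left out. Over these lists 104 genes were tested, of which 3 rose, 0 fell and 101 did not pass in edgeR, so that 2.88% were called against 3.2% of all tested genes. Among 12 tested genes of the WDFY family and of TLR3 and TLR4 signalling, 0 were called. Wdfy3, an autophagy adaptor, had 4.02 ± 0.50 FPKM in WT samples against 4.04 ± 0.17 in NS-DADm, and Wdfy2 at 1.47 ± 0.19 and 1.69 ± 0.28 (adjusted p = 0.911 and 0.675, edgeR). Among 15 genes of FYVE domain proteins and phosphatidylinositol 3-phosphate at early endosomes, such as Rab5a, Rab5b and Rab5c, 0 were called, and the median log2 fold change was 0.07.

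Of 14 tested genes of the ENTPD family and of related nucleotide and nucleotide-sugar handling, 1 rose. Entpd1 (CD39), which hydrolyses ATP and ADP outside cells, had 5.63, 5.29 and 7.18 FPKM in WT and 9.32, 8.07 and 9.03 in NS-DADm. It rose 1.48-fold (log2 fold change 0.57, SE 0.11, adjusted p = 0.025, edgeR), in the direction opposite to Entpd4, and lost its call with limma or when any of WT 1, WT 2, NS-DADm 1 and NS-DADm 3 was left out (adjusted p up to 0.111). Macrophages and endothelial cells express Entpd1: the macrophage markers are given above, and 4 endothelial markers summed to 159 to 174 and 161 to 173 with 0 called. Their part in the Entpd1 difference was not tested. The intracellular Entpd5 and Entpd6 did not pass, with WT levels of 64.3 ± 12.9 and 9.74 ± 1.1 FPKM and NS-DADm levels of 52.6 ± 2.6 and 9.64 ± 0.53 (adjusted p = 0.296 and 0.97).

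Genes of IDE's family, M16, and of other peptidases of insulin, amyloid-beta and natriuretic peptides did not pass the test. Of 10 tested, 0 were called, with a median log2 fold change of -0.05. Nrdc (listed as Nrd1), the nardilysin gene and a close relative of Ide in the M16 family, had 71.0 ± 2.0 FPKM in WT samples against 67.7 ± 1.1 (adjusted p = 0.738, edgeR). Uqcrc1 and Uqcrc2, respiratory chain subunits of the same family and the most abundant genes of the list, had WT levels of 864 ± 38 and 610 ± 21 FPKM against 822 ± 23 and 567 ± 25 (adjusted p = 0.747 and 0.56).

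Of 15 genes of insulin receptor signalling, 2 rose, Irs1 and Foxo1 (13.3% called, against 3.2% of all tested genes). In this list 14 of 15 genes had a positive log2 fold change, against 49.3% of all tested genes. The median was 0.04. Irs2, a related insulin receptor substrate, had 2.12, 1.74 and 3.61 FPKM in WT against 4.27, 6.31 and 4.21 in NS-DADm, with no overlap, and did not pass (2.01-fold, adjusted p = 0.0609, edgeR). Foxo1, a transcription factor restrained by insulin, rose 1.24-fold, from 7.24 ± 0.23 to 8.87 ± 0.38 FPKM (adjusted p = 0.0487, edgeR). It was not called without any 1 sample, with DESeq2's Wald test or with limma (adjusted p up to 0.149). The glucose transporter gene Slc2a4 stood at 213 ± 5.7 and 212 ± 13 FPKM. Of 7 tested genes of natriuretic peptides, whose product ANP is an IDE substrate, 0 were called, and Nppa, an atrial marker, ranged widely within both groups (1125 ± 1391 FPKM in WT samples against 2301 ± 1917, adjusted p = 0.587).

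The lists of Fgfbp3 and Btaf1 held no called gene. Of 11 tested genes of FGFs, FGF binding proteins and FGF receptors, 0 were called. Fgf1 was the most abundant, with 89.9 ± 4.4 FPKM in WT samples against 87.0 ± 1.2 (adjusted p = 0.886, edgeR), and Fgfbp1 was listed in 1 of the 6 samples. Of 20 genes of TBP, TFIID, TFIIA, TFIIB and the TBP repressor NC2, 0 were called, with a median log2 fold change of -0.02. Tbp itself, the substrate of BTAF1, stood at 5.75 ± 0.73 and 5.32 ± 0.055 FPKM, and Drap1, a subunit of NC2, at 224 ± 5.7 and 200 ± 7.4 (adjusted p = 0.793 and 0.272).

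A further list held 5 genes with known sequence differences between C57BL/6 substrains. It was chosen with earlier results for Nnt and Cyfip2 known and is therefore no independent evidence. It had 2 tested members, and both were called, against 3.2% of all tested genes. Nnt, the mitochondrial transhydrogenase whose gene is partly deleted in C57BL/6J, had 191, 201 and 190 FPKM in WT against 463, 483 and 423 in NS-DADm (2.68-fold higher, 1.42 on the log2 scale, SE 0.07, adjusted p = 1.2e-05, edgeR). Cyfip2, a subunit of the WAVE complex that carries a missense change in C57BL/6N, had 44.5, 46.2 and 39.8 FPKM in WT and 2.58, 2.94 and 2.34 in NS-DADm (16.3-fold lower, adjusted p = 3.4e-08). Groups did not overlap for either gene, nor for 23.4% of all tested genes. Cyfip2, unlike the 5 genes and Nnt, lies on the chromosome of Ncor1. Crb1 and Nlrp12 were listed at up to 0.33 and 0.02 FPKM and were not tested, and Gabra2 was listed in 0 samples.

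**Figure D4:**
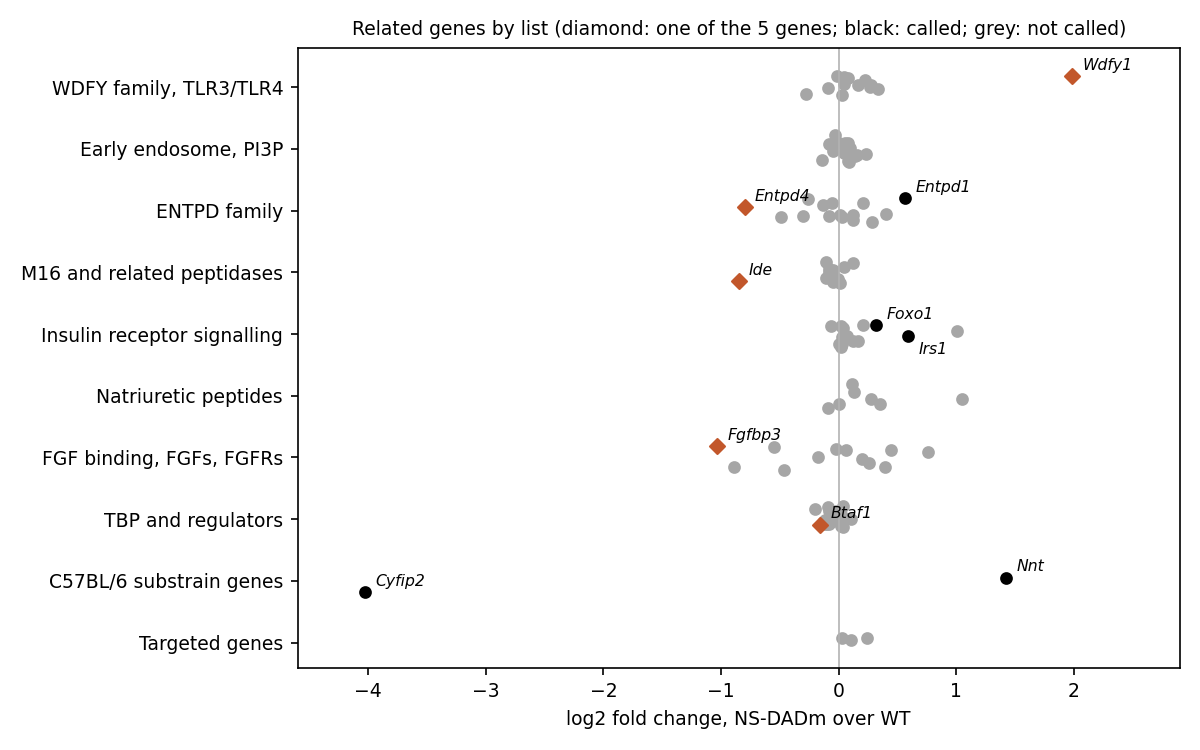
Log2 fold change, NS-DADm over WT, of tested genes by list, with the 5 genes as diamonds, called genes in black and other genes in grey (vertical position within a row is arbitrary). Most related genes lie near 0, while Wdfy1 (1.98), Entpd4 (-0.80), Ide (-0.85) and Fgfbp3 (-1.03) stand at the edge of their lists. The members were picked with this comparison known, so nothing is read from their place. Fgf16 (-0.89, not called) lies close to Fgfbp3 in the FGF list.

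Genes with the most similar profile over the 6 samples were sought by the root mean square difference between log2 CPM values centred on each gene's mean, among genes with a mean of at least 1 FPKM. Symbols that start with Gm and a digit or end in Rik were left out. For Wdfy1 the nearest of the remaining genes were Myot, Nnt and Fcgr4, at distances of 0.24, 0.33 and 0.33. For Entpd4 they were Ajuba, Tmem164 and Tmem266 (0.15, 0.16 and 0.16), and for Ide Phf24, Gamt and Tmem164 (0.11, 0.13 and 0.13). Fgfbp3 was nearest to Entpd4 (0.19), ahead of Efnb3 and Tmem164 (0.22 and 0.25), while its distance to Ide was 0.30. Tmem266, like Entpd4, was highest in NS-DADm 2 among the NS-DADm samples, with 1.10, 1.81 and 1.15 FPKM in NS-DADm 1, 2 and 3 and 1.81 to 2.70 in WT. Btaf1 was nearest to Kat6b, Abca9 and Ccdc163 (0.03, 0.04 and 0.04), genes that, like Btaf1, had their highest level in WT 3. These distances contain the difference between the groups and are a description only.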

How the data were processed

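Each sample has gene and transcript tables that the authors made from their reads and deposited, with expected counts (estimated counts) and FPKM, per the file headers. HISAT, with no version, is the tool named in the submitters' processing notes. No source used here gives the estimator, genome build or annotation, so no coordinates are printed. A gene missing from a table, which lists FPKM from 0.01 upward, was taken as 0. The deposited length column, read as bases, was used for Wdfy1 and set beside the M21 lengths of Entpd4 and Btaf1. The 1 row without a symbol (at most 3.2e-04% of counts) was left out. Counts were rounded, filtered by filterByExpr, scaled by TMM and tested in edgeR 4.0.16 (R 4.3.3) by quasi-likelihood, checked on simulated data, with Benjamini-Hochberg adjustment over 13130 genes and no replicate block. p-values measure the spread between samples, which may be technical. Standard errors come from the fold change and test statistic. Of the gene IDs, 17852 matched RefSeq (GRCm38.p6), used for gene order. Sequences are from GENCODE M21. Alternatives were DESeq2 (1.42.0) size factors and Wald test, other filters, limma (3.58.1) on log2(FPKM + 1) and log2(FPKM + 0.1), a replicate block, leaving out each sample, and, added after seeing the data, sets by atrial markers. Beyond the members, the text names called neighbours, the nearest tested neighbours, called and abundant list genes, genes of similar profile and, among the targeted genes, those reported here; other names were chosen after values were seen. Members and lists were chosen with earlier results of these data known.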

Additional observations from a re-analysis of the deposited data

How the results depend on the processing

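Because the 5 genes were picked with this comparison known, and only the groups of Btaf1 overlap, a kept sign is no support. All 5 kept the sign of their log2 fold change under all 13 alternative settings other than the atrial marker sets. Over those 13 and the reported fit it ranged from 1.53 to 2.09 for Wdfy1, -1.01 to -0.70 for Entpd4, -0.97 to -0.75 for Ide, -1.44 to -0.70 for Fgfbp3 and -0.27 to -0.04 for Btaf1. Limma on log2(FPKM + 1) and log2(FPKM + 0.1) gave Wdfy1 1.53 and 1.81. The pseudocount of 1 understates differences of low genes. Both scales also divide by the weighted Wdfy1 length, which was greater in NS-DADm. Leaving out 1 sample in turn gave Fgfbp3 -1.44 to -0.86. Within libraries of high atrial markers, an alternative chosen after seeing the data, Entpd4 was -1.04, Ide -1.08, Fgfbp3 -1.63 and Btaf1 -0.43, and within those of low atrial markers Wdfy1 was 1.59, Entpd4 -0.50 and Fgfbp3 -0.41 (log2 ratio of mean FPKM); the cause was not tested. Over all genes, 420 calls became 895 with a replicate block, 272 and 267 with limma at pseudocounts of 1 and 0.1, and 117 to 382 when 1 sample was left out (117 without WT 2, 149 without WT 1, 181 without NS-DADm 1, 273 without NS-DADm 2). Over 10 lists, which include the substrain and targeted genes, 5 calls became 11 with the block, 3 with limma on either scale, and 3 to 8 with 1 sample left out (3 without WT 1, WT 2 or NS-DADm 1, 8 without WT 3). Irs1 was the called neighbour in each. Same-numbered samples deviated with correlations of -0.05, 0.33 and 0.40, so the numbers were not taken to pair samples. Fgfbp3, with 19 to 55 counts per sample, and the short Wdfy1 transcript were limited by depth.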
